A study of Homo sapiens with 12 samples.

Results

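The genes described here encode G-protein alpha subunits, the GTP-binding parts of the trimeric G proteins that relay signals from receptors with several membrane passes. They were taken from a named list of 10 genes (GNAQ, GNA11, GNA15, GNA12, GNA13, GNAI1, GNAI2, GNAI3, GNAZ and GNAS), all of which were measured, among 18417 genes on the array. GNAQ was chosen by its log2 level, for its large difference between U-H01 arrays labelled induced and uninduced, and the other 9 genes as its relatives. Each gene was read from a probe set annotated to it alone, and where a gene had 2 such probe sets, as GNAQ, GNA11 and GNAI2 do, the brighter one over the 12 arrays stood for it.

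RNA was measured on 12 biotin-labelled arrays of 2 human lymphoma cell lines, the Hodgkin lymphoma line U-H01 (8 arrays) and HBL-1 (4 arrays), a line of activated B-cell-like (ABC) large-cell lymphoma. All cells, controls included, carried doxycycline-inducible hairpins against the NF-kB subunits RelB and cRel (whether 1 cell held both is not stated), with the hairpin left off in the uninduced arrays and switched on by doxycycline in those labelled induced. The 4 groups were U-H01 uninduced (4 arrays), U-H01 labelled induced (4), HBL-1 uninduced (2) and HBL-1 labelled induced (2). U-H01 arrays came from transduced populations titled B1 and B2 and HBL-1 arrays from C, each at 2 time points of unstated length. Which hairpin B1, B2 or C carries is not in the labels, nor whether a group's arrays were grown as separate cultures, so the spread behind each p-value may be technical. The lines grew in media with different shares of serum, so line and medium cannot be told apart.

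A G alpha subunit binds GDP at rest and holds the beta and gamma subunits. An active receptor makes it take up GTP and let go of them, until it hydrolyses the GTP. The alpha subunits fall into 4 classes by what they act on. The Gq class (GNAQ, GNA11, GNA15) activates phospholipase C beta, which releases calcium and activates protein kinase C. The G12/13 class (GNA12, GNA13) activates exchange factors for the GTPase RhoA, the Gi class (GNAI1, GNAI2, GNAI3, GNAZ) inhibits adenylyl cyclase, and GNAS, of the Gs class, stimulates it. In B cells, GNAI2 carries chemokine signals for migration, and GNA13 carries signals that hold germinal-centre B cells in place and is recurrently mutated in germinal-centre lymphomas.

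Before the results, 1 property of the arrays has to be given. Within a group, correlations between arrays over 19460 probe sets ran from 0.991 to 0.996, whereas U-H01 arrays labelled induced correlated with the uninduced U-H01 arrays at only 0.893 to 0.910 (0.905 to 0.917 with HBL-1). TNFRSF8 (CD30, a surface marker of Hodgkin cells) was at 6.89 in uninduced U-H01, 11.6 in U-H01 labelled induced and 6.63 in uninduced HBL-1, and CD79A, a B-cell receptor chain, at 5.73, 11.04 and 11.26. The 6 Hodgkin markers did not differ one way between the U-H01 labels: IRF4 was at 10.90 uninduced and 11.65 labelled induced, CCL17 at 6.59 and 6.56, CCL22 at 7.57 and 5.82, FSCN1 at 8.75 and 6.91 and FUT4 at 6.85 and 6.38. Their mean was 7.89 to 7.99 over the uninduced arrays, 8.02 to 8.27 over those labelled induced and 7.27 to 7.41 over HBL-1. The mean of 6 T-cell and NK-cell markers was 5.25 to 5.71 over U-H01 arrays and 5.29 to 5.42 over HBL-1, with CD3D, CD3E, CD3G and CD2 at 4.73 or below in group means, CD7 at 7.87 to 7.90, and NKG7 at 6.44 in uninduced U-H01, 7.06 in U-H01 labelled induced and 6.19 in uninduced HBL-1. The mean of 4 myeloid markers was 4.27 to 4.62 over all arrays, with CSF1R highest, at 5.09 to 5.36 in group means. Neither hairpin target passed in limma with the model used throughout: RELB was at -0.15 ± 0.09 (SE) between the U-H01 labels (adjusted p = 0.209) and -0.19 ± 0.12 in HBL-1 (adjusted p = 0.749), and REL, the gene of cRel, at 0.20 ± 0.09 (adjusted p = 0.0721) and -0.49 ± 0.12 (adjusted p = 0.123). REL did pass in HBL-1, as lower, with that line fitted alone (adjusted p = 0.0090), and between the U-H01 labels, as higher, in 4 of 21 alternatives (adjusted p of 0.0052 to 0.0482). Of 6 listed B-cell markers 5 were measured. Their mean was 6.23 to 6.48 over the uninduced U-H01 arrays, 8.61 to 8.89 over those labelled induced and 10.19 to 10.35 over HBL-1. These genes did not share 1 pattern. MS4A1 was at 4.49 and 4.52 in the U-H01 groups and 10.98 in uninduced HBL-1, and CD79B at 6.32, 6.27 and 10.92. In the same order PAX5 was at 9.05, 11.81 and 10.77 and CD22 at 6.09, 10.19 and 7.71, both highest in U-H01 labelled induced. The part of these markers in the results was not tested. Differences between the U-H01 groups therefore compare labels, and whether both U-H01 groups hold the same cells was not tested here.

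The hairpins of the study are aimed at NF-kB subunits, so the promoters of the G alpha genes were searched for the kB consensus that these factors bind. RefSeq windows of the 250 bases before a start (GRCh38.p14) matched 7 of the 10 genes, with 17 windows in all, while GNAQ, GNA15 and GNAZ had no window in the table. The kB consensus, on either strand, lay in 0 of the 17 windows and in 9.96% of all 35116 windows of that length. The GC box, GGGCGG or its complement CCGCCC, lay in 7 of the 17 and in 42.6% of all. The windows of GNA12 at chr7:2844309-2844558 (minus strand) and of GNAI1 at chr7:80134581-80134830 (plus strand) are shown, as these genes had the largest tested differences between groups among those with a window. Each is written 5′ to 3′ up to the start of the gene, with GC boxes in capitals.
GNA12: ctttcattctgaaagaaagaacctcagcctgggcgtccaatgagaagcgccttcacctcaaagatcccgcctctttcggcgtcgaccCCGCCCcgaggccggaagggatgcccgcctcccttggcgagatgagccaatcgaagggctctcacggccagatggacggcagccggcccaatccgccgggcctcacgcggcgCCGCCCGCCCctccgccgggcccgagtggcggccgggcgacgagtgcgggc
GNAI1: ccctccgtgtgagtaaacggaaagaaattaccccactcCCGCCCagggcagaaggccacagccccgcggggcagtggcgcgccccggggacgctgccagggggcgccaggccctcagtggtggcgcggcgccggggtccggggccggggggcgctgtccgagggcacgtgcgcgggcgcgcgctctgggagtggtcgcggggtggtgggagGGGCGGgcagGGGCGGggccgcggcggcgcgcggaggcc
Each of these windows holds 3 GC boxes, a pair of which overlap in GNA12. A match is a description of the sequence, and no match says only that these letters are not in this window.

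GNAQ, the founding member of the Gq class, was high in the 4 uninduced U-H01 arrays and low on the other 8. Its log2 level was 11.88 and 11.58 in B1 and 11.20 and 11.06 in B2 of the uninduced U-H01 arrays. In the U-H01 arrays labelled induced it was 4.71 and 4.83 in B1 and 4.48 and 4.61 in B2. In HBL-1 it was 4.82 and 4.58 uninduced and 4.38 and 4.29 labelled induced. No uninduced U-H01 array came within 6 log2 units of any other array, and the other 3 groups lay together near the lower quartile of each array, 4.18 to 4.28, where signal can be background.

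Group means of GNAQ were 11.4 ± 0.37 (SD, n = 4) in uninduced U-H01, 4.66 ± 0.15 (SD, n = 4) in U-H01 labelled induced, 4.70 ± 0.17 (SD, n = 2) in uninduced HBL-1 and 4.34 ± 0.06 (SD, n = 2) in HBL-1 labelled induced. The arrays labelled induced were thus lower than uninduced U-H01 by a log2 difference of -6.77, a 109-fold difference in signal. The pairs of arrays from the same population and time point differed by -7.17, -6.75, -6.72 and -6.45. Uninduced U-H01 exceeded HBL-1 by 6.91. In this and all other comparisons with U-H01, HBL-1 is the mean of its uninduced and labelled induced groups. Because GNAQ was picked for this difference, these values are a description with no test, and a fold against a level this low can understate the difference. In bulk RNA, fewer cells with the transcript and less transcript per cell cannot be told apart.

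The other GNAQ probe set showed the same split. It read 10.52, 9.98, 9.62 and 9.76 in uninduced U-H01 and between 3.43 and 3.61 on the other 8 arrays. Its difference between the U-H01 groups was -6.44 and its excess in uninduced U-H01 over HBL-1 was 6.47. RefSeq also lists a GNAQ pseudogene, GNAQP1, and signal from that copy was not told apart here.

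**Figure D1:**
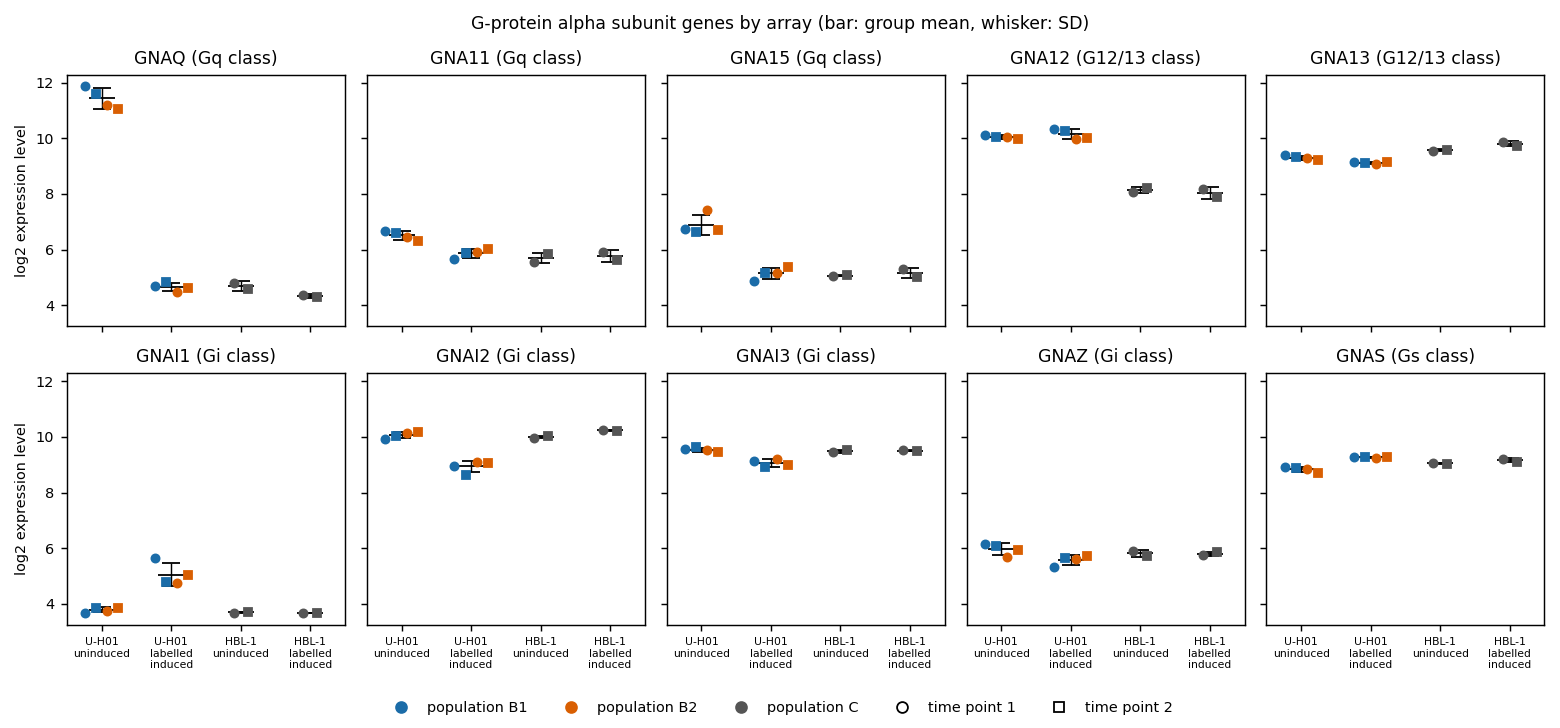
Log2 expression level (vertical axis) of the 10 G alpha genes on each of 12 arrays, by group (horizontal axis), with colour for the population and shape for the time point; bars are group means and whiskers SD (n = 4 in U-H01 groups, n = 2 in HBL-1 groups). GNAQ stands at 11.06 to 11.88 in uninduced U-H01 and at 4.83 or below elsewhere, GNA12 separates both U-H01 groups from HBL-1, and GNAI1 is higher only in the U-H01 arrays labelled induced.

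The other Gq genes were also higher in uninduced U-H01, by far smaller amounts. GNA11, the closest relative of GNAQ, was at 6.65, 6.60, 6.46 and 6.32 in uninduced U-H01. It was at 5.66, 5.89, 5.91 and 6.03 in U-H01 labelled induced, 5.56 and 5.83 in uninduced HBL-1 and 5.92 and 5.62 in HBL-1 labelled induced. Uninduced U-H01 lay above every other array, and the other groups overlapped. GNA11 exceeded HBL-1 in uninduced U-H01 by 0.78 ± 0.12 (SE; adjusted p = 1.1e-04, limma), and its other probe set by 1.19 ± 0.10 (adjusted p = 8.4e-07). Between U-H01 labelled induced and HBL-1 the GNA11 difference was 0.14 with a 95% interval of -0.12 to 0.39 (adjusted p = 0.416).

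GNA15, a Gq-class subunit typical of blood cells, was at 6.76, 6.63, 7.42 and 6.69 in uninduced U-H01. In U-H01 labelled induced it was at 4.89, 5.17, 5.17 and 5.38, and in the 4 HBL-1 arrays between 5.04 and 5.29. The uninduced U-H01 arrays again stood above the rest, with 1 of them, the B2 array at time point 1, well above its group. GNA15 exceeded HBL-1 in uninduced U-H01 by 1.76 ± 0.14 (adjusted p = 2.9e-07) and in U-H01 labelled induced by 0.04, with an interval of -0.26 to 0.34 (adjusted p = 0.876). Levels of GNAQ, GNA11 and GNA15 in U-H01 labelled induced thus lay within the range of HBL-1 or overlapped it.

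**Figure D2:**
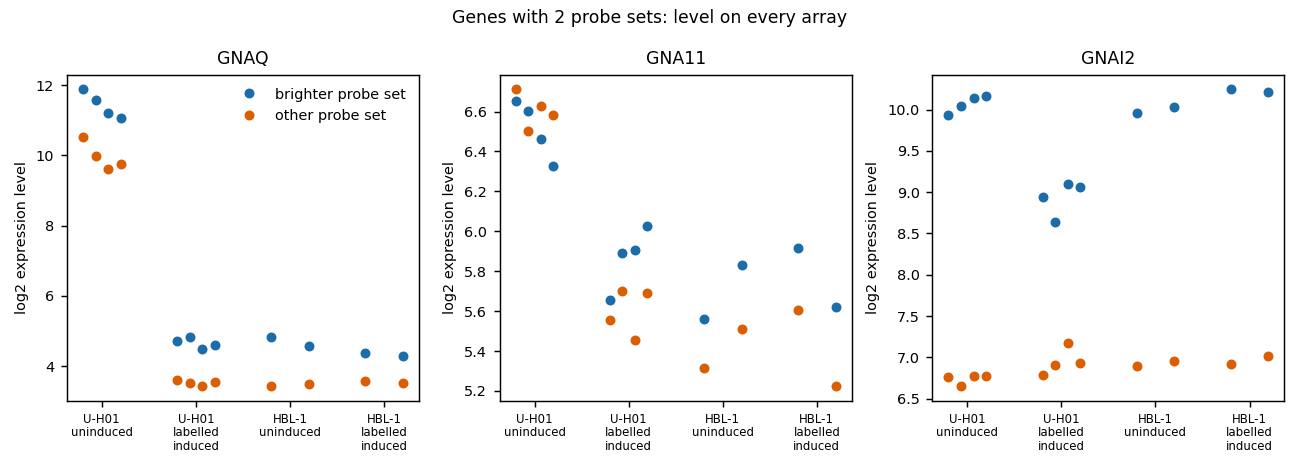
Log2 expression level (vertical axis, a scale of its own in each panel) on every array for the 3 genes with 2 probe sets, by group, with replicates from left to right. Both probe sets of GNAQ and both of GNA11 are higher in uninduced U-H01, while for GNAI2 only the brighter one is lower in U-H01 labelled induced, at a difference of -1.13 against 0.21 for the other.

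Of the G12/13 class, GNA12 separated the lines and not the labels. Its level was 10.11, 10.06, 10.03 and 9.97 in uninduced U-H01 and 10.33, 10.25, 9.98 and 10.03 in U-H01 labelled induced. In HBL-1 it was 8.06 and 8.23 uninduced and 8.19 and 7.89 labelled induced. Both U-H01 groups overlapped each other and lay above all HBL-1 arrays. GNA12 exceeded HBL-1 by 1.95 ± 0.09, or 3.86-fold, in uninduced U-H01 (adjusted p = 2.1e-09, limma) and by 2.06 ± 0.09, or 4.16-fold, in U-H01 labelled induced (adjusted p = 1.6e-09).

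GNA13 was lower in U-H01 than in HBL-1. It was at 9.39, 9.33, 9.28 and 9.21 in uninduced U-H01 and at 9.14, 9.13, 9.08 and 9.16 in U-H01 labelled induced, against 9.55 and 9.59 in uninduced and 9.88 and 9.74 in HBL-1 labelled induced. No 2 of the 4 groups overlapped. The log2 difference from HBL-1 was -0.39 ± 0.08 in uninduced U-H01 (adjusted p = 9.6e-04) and -0.56 ± 0.08 in U-H01 labelled induced (adjusted p = 5.0e-05). Another probe set, annotated to GNA13 together with other genes, was left out.

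In the Gi class, GNAI1, GNAI3 and, by its brighter probe set, GNAI2 differed from HBL-1 in U-H01 labelled induced. These genes did not pass in uninduced U-H01, while GNAZ passed in neither. GNAI1 was at 3.68, 3.87, 3.75 and 3.86 in uninduced U-H01 and at 3.67 to 3.72 in HBL-1, below the lower quartile of the arrays. In U-H01 labelled induced it was at 5.65, 4.77, 4.77 and 5.02, above all other arrays, with the B1 array at time point 1 highest. GNAI1 exceeded HBL-1 there by 1.36 ± 0.16 (adjusted p = 1.3e-05), against 0.10 in uninduced U-H01, with an interval of -0.25 to 0.45 (adjusted p = 0.673).

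GNAI2, the main Gi subunit of lymphocytes, was at 9.93, 10.04, 10.14 and 10.17 in uninduced U-H01 and at 8.94, 8.64, 9.10 and 9.06 in U-H01 labelled induced. In HBL-1 it was at 9.96 and 10.03 uninduced and 10.24 and 10.22 labelled induced. U-H01 labelled induced lay below every other array, by 1.18 ± 0.09 from HBL-1 (adjusted p = 1.7e-07). The other GNAI2 probe set did not show this: its difference from HBL-1 was 0.01 ± 0.08 (adjusted p = 0.955), so the call for GNAI2 rests on 1 of 2 probe sets. In uninduced U-H01 the difference of GNAI2 from HBL-1 was -0.04, with an interval of -0.23 to 0.15 (adjusted p = 0.736).

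GNAI3, another Gi subunit, followed GNAI2 on a smaller scale. Its levels ran from 9.45 to 9.62 in uninduced U-H01, from 8.91 to 9.21 in U-H01 labelled induced and from 9.45 to 9.51 in HBL-1. U-H01 labelled induced was lower than HBL-1 by a log2 difference of -0.43 ± 0.08 (adjusted p = 8.2e-04), and uninduced U-H01 differed from HBL-1 by 0.05, with an interval of -0.13 to 0.23 (adjusted p = 0.685). GNAZ, a Gi-class subunit best known from neurons and platelets, was at 5.69 to 6.16 in uninduced U-H01, 5.31 to 5.71 in U-H01 labelled induced and 5.72 to 5.91 in HBL-1. It did not pass against HBL-1 in either U-H01 group, at 0.16 (adjusted p = 0.307) and -0.24 (adjusted p = 0.125).

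GNAS, whose product raises cyclic AMP, was at 8.71 to 8.93 in uninduced U-H01, 9.24 to 9.28 in U-H01 labelled induced, 9.03 to 9.06 in uninduced HBL-1 and 9.11 to 9.21 in HBL-1 labelled induced. The 4 groups did not overlap. Uninduced U-H01 was lower than HBL-1 by a log2 difference of -0.27 ± 0.07 (adjusted p = 0.0094), a call lost without HBL-1 labelled induced replicate 1 or HBL-1 uninduced replicate 2 (adjusted p = 0.0554 each). U-H01 labelled induced differed from HBL-1 by 0.16 ± 0.07 (adjusted p = 0.108), which passed when each array was centred on its median (0.22, adjusted p = 0.0368).

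Against HBL-1, GNAQ left aside, 3 of the 9 other genes passed as higher and 2 as lower in uninduced U-H01, where 23.1% of all genes passed as higher and 24.3% as lower (47.4% in all). In U-H01 labelled induced, 2 passed as higher and 3 as lower, against 19.7% and 23.0% of all genes (42.6% in all). Uninduced U-H01 did not overlap HBL-1 in 5 of the 9 genes, against 44.9% of all genes, and U-H01 labelled induced in 7 of the 9, against 39.7%. With shares like these over all genes, nothing particular to the G alpha genes is read from the counts. Both comparisons share the HBL-1 arrays. The median size of the log2 difference was 0.27 for the 9 genes and 0.22 for all genes in the former, and 0.43 and 0.19 in the latter.

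Between the U-H01 labels, 8 of the 10 genes had groups that did not overlap, 6 lower and 2 higher in the arrays labelled induced, against 41.1% of all genes. GNA12 and GNAZ overlapped. The difference was over 2-fold for GNAQ, GNA15, GNAI1 and GNAI2. The log2 differences other than that of GNAQ were -1.72 for GNA15, -0.64 for GNA11, 0.11 for GNA12, -0.18 for GNA13, 1.26 for GNAI1, -1.13 for GNAI2, -0.48 for GNAI3, -0.39 for GNAZ and 0.43 for GNAS. These are differences of the probe sets that stood for the genes. By its other probe set GNA11 was at -1.01, also over 2-fold, and GNAI2 by its other at 0.21, of the opposite sign. Since this contrast chose GNAQ, no test is given and nothing is read from these shares.

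**Figure D3:**
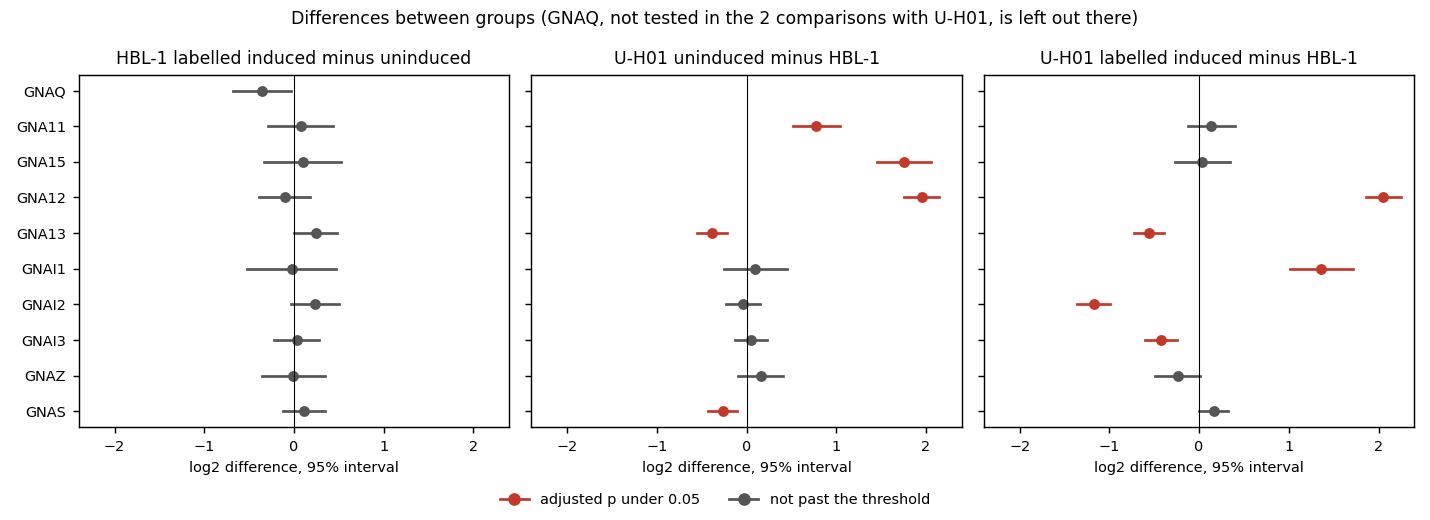
Log2 differences (horizontal axis) with 95% intervals from limma for the G alpha genes (vertical axis) in 3 comparisons, with red for adjusted p under 0.05; GNAQ is drawn only in HBL-1. All 10 intervals are grey in HBL-1, and GNA12 lies near 2 in both comparisons of U-H01 with HBL-1.

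Within HBL-1, labelled induction left every G alpha gene short of the threshold: with limma 0 of 10 passed, against 0.603% of all genes, and 2 of 10 had an unadjusted p under 0.05, against 9.74% of all genes. GNAQ was at -0.36 ± 0.15, lower in both pairs (-0.44 and -0.28), with a 95% interval of -0.68 to -0.04 and an adjusted p of 0.434. Its other probe set was at 0.08 ± 0.18 (adjusted p = 0.955), and both lie near background. GNA13 was at 0.24 ± 0.11, higher in both pairs, with an interval of 0.00 to 0.48 and an adjusted p of 0.498. GNAI2 was at 0.24 (adjusted p = 0.595) and GNAS at 0.11 (adjusted p = 0.859), both higher in both pairs. For the remaining genes the bounds ran from -0.52, for GNAI1, to 0.52, for GNA15. GNAQ and GNAI1 lie near background in HBL-1, where their intervals do not bound a change in transcript.

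Between the U-H01 populations, GNAQ was lower in B2 than in B1 among the uninduced arrays, by a log2 difference of -0.60 ± 0.13 (interval -0.88 to -0.32, n = 2 each). With an adjusted p of 0.0303 it was the only 1 of the 10 genes to pass, where 3.30% of all genes did, 2.47% as lower and 0.831% as higher; at an unadjusted p under 0.05 were 2 of the 10 and 17.6% of all genes. The call was lost without any 1 of the 4 uninduced U-H01 arrays (adjusted p of 0.0628 to 0.300) or of the 4 HBL-1 arrays (0.0561), and the other GNAQ probe set, at -0.56 ± 0.15, had an adjusted p of 0.0685. In the arrays labelled induced GNAQ differed by -0.23 (adjusted p = 0.684). There 0 of 10 genes passed in limma, against 0.109% of all genes, with 2 of 10 at an unadjusted p under 0.05, against 8.35%. The change between labels differed between B2 and B1 in 0 of 10 genes by limma (0.586% of all genes), with only GNAZ at an unadjusted p under 0.05 (0.48, adjusted p = 0.333), against 11.4% of all genes. Between the 2 time points of U-H01 0 of 10 passed in limma, as did 0 of all genes, and 0 of the 10 had an unadjusted p under 0.05, against 7.72% of all genes.

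The genes whose pattern lay closest to GNAQ over the 12 arrays, by Euclidean distance between mean-centred log2 levels, were SULF1 (0.77), MAOA (0.79), DPP4 (0.83), CYP1B1 (0.94) and IL13RA1 (0.99), against a median distance of 11.3 over all genes. SULF1, a heparan sulfatase gene, had group means of 10.8 in uninduced U-H01, 3.73 in U-H01 labelled induced, 3.90 in uninduced HBL-1 and 3.93 in HBL-1 labelled induced. MAOA, a monoamine oxidase gene, was at 11.1, 4.12, 4.14 and 4.37 in the same order. Each of the 5 was high in uninduced U-H01 alone, as GNAQ was, which follows from picking them by this distance. The median distance of 11.3 is near that of a gene flat over the arrays, 11.2.

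None of the genes next to GNAQ on chromosome 9 set uninduced U-H01 apart from all other arrays by a like amount. GNA14, its Gq-class neighbour, was at 3.56 ± 0.09 (SD, n = 4) in uninduced U-H01, 3.48 ± 0.11 in U-H01 labelled induced and 3.53 and 3.43 in the HBL-1 groups, low on all arrays. CEP78, a centrosome gene on the other side, was at 8.52, 7.88, 8.18 and 8.13. Its uninduced U-H01 arrays, at 8.43 to 8.67, lay above every other array, the highest of which was at 8.26. VPS13A, a lipid transfer protein gene, was at 7.37, 8.27, 8.12 and 8.35. Its uninduced U-H01 arrays, at 7.15 to 7.50, lay below every other array, the lowest of which was at 8.01. PSAT1, an enzyme gene of serine synthesis, was at 9.62 ± 0.38 in uninduced U-H01, 4.88 ± 0.23 in U-H01 labelled induced, 10.6 in uninduced HBL-1 and 10.2 in HBL-1 labelled induced. It shared the low level in U-H01 labelled induced with GNAQ but not that in HBL-1. Farther out, FOXB2 was at 7.46, 7.45, 7.45 and 7.49 and TLE4 at 7.09, 8.33, 9.11 and 8.92 in the same order. The uninduced U-H01 arrays of TLE4, at 6.86 to 7.24, also lay below every other array, the lowest of which was at 8.30.

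**Figure D4:**
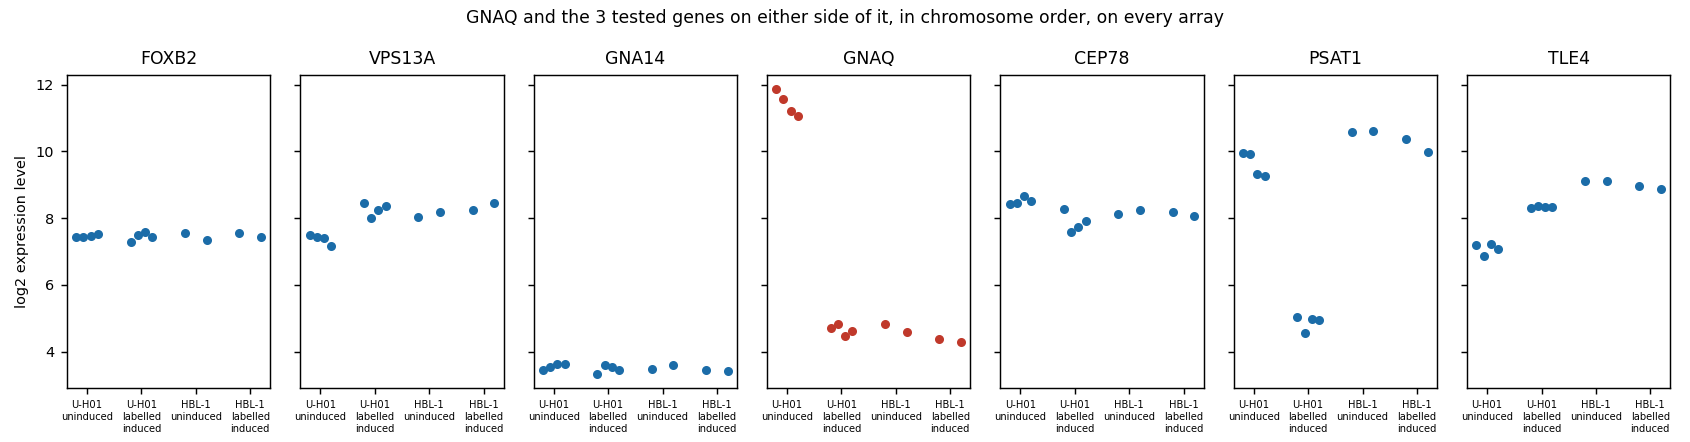
Log2 expression level (vertical axis) of GNAQ (red) and of the 3 tested genes on either side in chromosome order (blue) on every array, by group. GNAQ is high only in uninduced U-H01, GNA14 stays between 3.34 and 3.63, and PSAT1 is low only in U-H01 labelled induced.

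Partners of the G alpha subunits were followed in 8 lists holding 107 measured genes. In HBL-1, 3 of the 107 rose with labelled induction and 1 fell, against 0.418% and 0.185% of all genes. CXCR4, a chemokine receptor that signals through Gi, rose from a mean of 8.36 to 9.36 (SE of the difference 0.15, adjusted p = 0.0123), and PRKACB, a catalytic subunit of protein kinase A, by 0.66 ± 0.11 (adjusted p = 0.0165). ROCK2, a kinase activated by RhoA, rose by 0.54 ± 0.11 (adjusted p = 0.0441). It lost this call in 12 of 22 alternatives, against 5 for CXCR4, 5 for PRKACB and 4 for NUCB2. Among the 12 were the replicate block (adjusted p = 0.0794) and each array centred on its median (0.0562). NUCB2, a calcium-binding protein known to bind G alpha, fell by 1.02 ± 0.12 (adjusted p = 0.0024). The 4 that passed each lost the call without any 1 of the 4 HBL-1 arrays, with adjusted p up to 0.263 for NUCB2, 0.419 for CXCR4, 0.421 for PRKACB and 0.619 for ROCK2. When unnamed and multi-gene probe sets were tested too, 1 of the 107 passed. With HBL-1 fitted alone, which leaves 1 residual degree of freedom, 13 of the 107 passed (6 of them receptors), against 4.71% of all genes and 0 of the 10 G alpha genes, and without the U-H01 arrays labelled induced 7 passed.

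The other genes with the smallest p of their list in HBL-1 did not pass. ITPR1, a calcium release channel gene, was at 0.62 ± 0.17 (adjusted p = 0.166) and the chemokine receptor gene CCR7 at 0.61 ± 0.15 (adjusted p = 0.115). Both passed with HBL-1 fitted alone (adjusted p of 4.3e-04 and 7.0e-04) and without the U-H01 arrays labelled induced (0.0183 and 0.0438), and ITPR1 also without U-H01 labelled induced replicate 4 (0.0205). RASGRP1 was at -0.43 (adjusted p = 0.269), the beta subunit gene GNB3 at -0.43 (adjusted p = 0.388) and the receptor kinase gene GRK5 at -0.50 (adjusted p = 0.649); these 3 passed only with HBL-1 fitted alone, at 0.0296, 0.0281 and 0.0231. The remaining genes passed in no alternative: GNB4 was at 0.32 (adjusted p = 0.500), PDE4B at 0.35 (adjusted p = 0.486), ARHGEF1 at -0.25 (adjusted p = 0.589), GNAT2 at 0.25 (adjusted p = 0.506), GNG2 at -0.25 (adjusted p = 0.805), GNG12 at 0.16 (adjusted p = 0.841) and GNA14 at -0.10 (adjusted p = 0.892).

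Between uninduced U-H01 and HBL-1, 7 of 9 effectors of the G12/13 class passed as higher and 1 as lower in U-H01. Of all genes, 23.1% passed as higher and 24.3% as lower. The median log2 difference was 0.69 for the list and -0.03 over all genes. AKAP13, an exchange factor for RhoA, was higher by 2.22 ± 0.10 (adjusted p = 9.2e-10) and RHOB, a relative of RhoA, by 1.84 ± 0.15 (adjusted p = 5.2e-07). In U-H01 labelled induced against HBL-1, 5 of the 9 passed as higher and 1 as lower, against 19.7% and 23.0% of all genes. The list was chosen with earlier results of these data known and was not tested as a set. Of 17 Gq effectors, 6 were higher and 4 lower in uninduced U-H01 and 7 did not pass, near the shares of all genes, and their median difference was -0.03. RASGRP1, an exchange factor for Ras that responds to diacylglycerol, was higher by 5.51 ± 0.10 (adjusted p = 5.4e-13), and its relative RASGRP3 differed by -5.77 ± 0.09 (adjusted p = 1.9e-13). RASGRP1 had group means of 11.2 in uninduced U-H01, 9.88 in U-H01 labelled induced and 5.87 in uninduced HBL-1, and RASGRP3 of 4.17, 8.03 and 10.1.

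Of 22 adenylyl cyclase and cAMP genes, 6 were higher and 8 lower in uninduced U-H01 than in HBL-1. These counts, and those of the next lists, are read against 23.1% of all genes higher and 24.3% lower, and nothing particular to the lists is read from them. The phosphodiesterase genes PDE3B and PDE4B differed by -4.07 ± 0.10 (adjusted p = 6.5e-12) and -2.73 ± 0.11 (adjusted p = 5.0e-10). Of 13 chaperones and modulators 5 were higher and 3 lower, with NUCB2 at 3.01 ± 0.09 (adjusted p = 2.6e-11) and the receptor kinase gene GRK3 at -3.01 ± 0.09 (adjusted p = 3.4e-11). NUCB2 had group means of 8.97 in uninduced U-H01, 6.47 in uninduced HBL-1 and 5.45 in HBL-1 labelled induced. Its lower level in the last group thus enters the 3.01. Of 25 receptors of B cells 5 were higher and 8 lower, with CXCR5, the follicle-homing receptor, at -4.99 ± 0.17 (adjusted p = 1.2e-10) and the cannabinoid receptor gene CNR2 at -4.67 ± 0.11 (adjusted p = 6.3e-12).

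Most beta and gamma subunit genes did not pass between uninduced U-H01 and HBL-1, 3 of 5 and 7 of 11, where 47.4% of all genes passed. Of the beta genes, GNB5 was higher by 0.83 ± 0.08 (adjusted p = 2.2e-06) and GNB3 differed by -1.08 ± 0.12 (adjusted p = 6.2e-06) in uninduced U-H01 against HBL-1. Of the gamma genes, 3 were higher and 1 lower, with GNG2 higher by 0.93 ± 0.14 (adjusted p = 1.0e-04) and GNG5 by 0.55 ± 0.10 (adjusted p = 4.2e-04). GNG2 had group means of 9.13 in uninduced U-H01, 4.68 in U-H01 labelled induced and 8.33 in uninduced HBL-1. It was thus low in U-H01 labelled induced, as GNAQ was, but not in HBL-1. Of 5 measured G alpha genes outside the list of 10 (GNA14, GNAL, GNAO1, GNAT1 and GNAT2), 0 passed in limma between uninduced U-H01 and HBL-1, with only GNAL at an unadjusted p under 0.05 (0.24, adjusted p = 0.0699). GNAT2, a transducin gene, was at -0.15 there (adjusted p = 0.143). It was lower in U-H01 labelled induced than in HBL-1, at -0.40 ± 0.08 (adjusted p = 0.0010). Its group means were 4.38 in U-H01 labelled induced, 4.66 in uninduced HBL-1 and 4.91 in HBL-1 labelled induced. These levels can be background, and the higher level in the last group enters the -0.40.

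Between the U-H01 labels, where 22.3% of all genes passed as higher and 23.5% as lower in limma (45.8% in all), the counts of higher and lower genes in the arrays labelled induced were 7 and 5 of 17 Gq effectors, 3 and 4 of 9 G12/13 effectors, 5 and 7 of 22 adenylyl cyclase and cAMP genes and 8 and 6 of 25 receptors. They were 3 and 5 of 13 chaperones and modulators, 2 and 1 of 5 beta genes, 2 and 2 of 11 gamma genes and 0 and 1 of 5 further alpha genes.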

How the data were processed

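The values are log2 expression levels as the authors deposited them. The submitters' processing notes name RMA and Partek, without versions. RMA corrects background and brings arrays to like distributions, which can hide a shift of all genes. The table held 33297 probe sets, of which 19460 were annotated to 1 symbol (18417 genes), 1754 to several and 12083 to none. Array medians lay between 5.79 and 5.88. The number of arrays limits the precision.

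One linear model over the 12 arrays was fitted with lmFit and eBayes in limma 3.58.1 under R 4.3.3, with terms for population, time point within line and induction within line (7 terms, 5 residual degrees of freedom), and with an induction term for each population where B1 and B2 were compared (8 terms, 4). Tests were two-sided, with Benjamini-Hochberg adjustment over all 19460 probe sets and calls at an adjusted p under 0.05. Comparisons of a U-H01 group with HBL-1 used all 4 HBL-1 arrays, with uninduced and labelled induced weighted alike. The model was tested on simulated data. The members, lists and tests were chosen with earlier results of these data known. Named besides the 10 genes are, for each list, the 2 genes with the smallest p in HBL-1 and the 2 with the largest difference between uninduced U-H01 and HBL-1, the 5 genes closest to GNAQ, its 3 tested neighbours on either side, and RELB and REL. The neighbour order and the symbols came from the RefSeq gene table of GRCh38.p14. Promoter windows came from RefSeq.

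Induced and uninduced arrays with the same replicate number are parts of 1 population, according to the protocols in the labels, and this gives the pairing. Their deviations from group means correlated at -0.02 to 0.14 in U-H01 and 0.09 in HBL-1. Alternatives were the replicate block, group means only, other scalings, filters, eBayes options, each line alone, the mean of a gene's probe sets and each array left out. Figures were drawn with matplotlib 3.10.9.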

Additional observations from a re-analysis of the deposited data

Results flagged for a closer look

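GNA15 in uninduced U-H01 had its B2 array at time point 1 at 7.42, far above the other 3 (6.63 to 6.76), by a gap of 0.83 of the group's range. With 20 groups of 4 looked at, chance alone flags about 1. The difference between labels had opposite signs in all 4 U-H01 pairs and both HBL-1 pairs for 3 genes, and the difference between lines was not tested. GNA13 had a mean difference of -0.18 in U-H01 with 0.33 and 0.15 in the HBL-1 pairs. GNAI1 had 1.26, with -0.02 and -0.04 at HBL-1 levels near background. GNAI2 had -1.13, with 0.28 and 0.19, by its brighter probe set. Its other probe set was higher in the arrays labelled induced in all 4 U-H01 pairs and both HBL-1 pairs. The share of all genes with such opposite signs was not counted, so nothing is read from the 3.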

How the results depend on the processing

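The log2 difference of GNAQ between the U-H01 labels kept its sign in all 21 alternatives run, from -6.86 to -6.61, and was -6.77 with the replicate block. The block changed no call among the 10 genes where it was run, and among the other genes named in HBL-1 it ended that of ROCK2. It was not run for B2 against B1 within a label or for the time points. The GNAQ call between B2 and B1 was therefore not put to it. The count of 0 called in HBL-1 held in all 22 alternatives. Against HBL-1, the 5 called genes in uninduced U-H01 became 3 when probe sets at or below the median level were left out, which leaves 5 of the 9 to test, and 4 to 6 were called in U-H01 labelled induced. The single call between B2 and B1 in uninduced U-H01 became 0 when every probe set was tested and 0 with U-H01 fitted alone (adjusted p of 0.0997 and 0.0561). With 1 array left out it was 0 to 1, and the fits without any HBL-1 array are the same, since those arrays enter only through the spread. Leaving out an HBL-1 array leaves 1 array in a group, assumed to vary like the others. Without the 4 U-H01 arrays labelled induced, an alternative chosen after seeing the data, the counts stayed at 0 in HBL-1 and 5 in uninduced U-H01 against HBL-1. For the mean of both probe sets GNAI2 differed by -0.46 between the U-H01 labels. Centring each array on its median moved the median difference of all genes between the U-H01 labels from 0.03 to 0.16, and GNA13 then stood at -0.04. Background correction could not be varied, since values were deposited after RMA. Genes near background have understated folds.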
